A study of Mus musculus and Rattus norvegicus with 36 samples.

Results

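Liver transcripts of rats on a diet with 0.8 μg Se/g were compared with those of rats on 0.08 μg Se/g. The 2 groups hold 6 of the 36 samples of the series and 6 of its 18 rat livers, with 3 rats in each group, and they were chosen by the diet in the sample labels. The rats were male Holtzman weanlings. All 6 were given the same Se-deficient torula yeast diet, supplemented with sodium selenite to 0.8 or to 0.08 μg Se/g diet, for 28 days. No group carried a gene deletion or another agent, so the level of dietary selenite is the labelled difference. For this comparison the paper's results call rats at 0.08 μg Se/g Se-adequate, while its methods give that name to 0.24 μg Se/g. Both intakes compared here lie above the Se-deficient diet and below the highest diets of the series, on either side of 0.24 μg Se/g. The comparison asks which liver transcripts differ between a higher and a lower supply within that range. Livers were perfused in place, and the RNA of each rat was hybridized to 1 Affymetrix rat expression array of 31099 probe sets. Of the other rats, 3 each were fed the Se-deficient diet, 0.24, 2 or 5 μg Se/g, and by the paper these belonged to a second rat study, in which the diets compared here were fed as well.

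Selenium acts in the animal mainly as selenocysteine, an amino acid built into a small family of proteins. Ribosomes insert it at a UGA codon that would otherwise stop translation, with the help of a stem loop in the mRNA, a protein that binds that loop and a dedicated tRNA. In liver the best known of these selenoproteins are Gpx1, which reduces hydrogen peroxide with glutathione, and Selenop, which carries Se through plasma to other tissues. The mRNA of some selenoproteins, Gpx1 foremost, is lost by nonsense-mediated decay when Se is scarce, and it reaches a plateau once Se is adequate. Surplus Se is methylated with methyl groups from S-adenosylmethionine and leaves in urine and breath, and at higher intakes reactive Se compounds can oxidize thiols, a kind of stress to which the transcription factor Nrf2 responds.

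The values are log2 levels per probe set, and each difference is the mean at 0.8 minus the mean at 0.08 μg Se/g diet, so that 1 unit is a 2-fold difference. Array medians lay between 6.24 and 6.25 and single values between 2.64 and 15.03. Markers of hepatocytes, the cells that make up most of the liver, averaged 13.71, 13.60 and 13.75 at 0.8 and 13.65, 13.68 and 13.67 at 0.08 μg Se/g, and markers of the pancreas averaged 5.02 to 5.13 and 5.02 to 5.21. The tissue label therefore fits its markers, and the groups overlapped in both lists. Replicate 3 at 0.08 μg Se/g stood apart from the other 2 rats of its diet. It correlated with them across probe sets at r of 0.9897 and 0.9898, while those 2 correlated at 0.9944 with each other, and the array nearest to it was replicate 2 at 0.8. Against the mean of the other 2 rats of the diet, 339 probe sets lay past 2-fold in this rat, and 125 to 171 did so for each of the other 5. Counts over the gene lists that move with this array are given with and without it. Lys, a control transcript added to the RNA before labelling, was at 8.73 to 8.96 on the arrays at 0.8 and at 8.99 to 9.24 on those at 0.08 μg Se/g, against 4.80 to 5.83 on the 12 rat arrays of the other diets.

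No transcript passed the test between the diets. Limma called 0 of 31042 probe sets at an adjusted p under 0.05 (0%), and the smallest adjusted p was 0.967. At an unadjusted p under 0.05 there were 568 probe sets with higher (1.83%) and 853 with lower means at 0.8 μg Se/g (2.75%). With 1 probe set per gene, 266 of 14217 genes were higher at that limit (1.87%) and 471 were lower (3.31%). In 570 genes all 3 rats at 0.8 lay above all 3 at 0.08 μg Se/g (4.01%), and in 851 genes all 3 lay below (5.99%). Means were higher at 0.8 μg Se/g in 6735 of the 14217 genes and lower in 7482. These shares and counts are the background against which the gene groups are read. Without replicate 3 at 0.08 μg Se/g, 771 genes were higher (5.42%) and 1039 lower (7.31%) at an unadjusted p under 0.05, and counts over a list without this array are read against those shares. With 3 rats against 3 the smallest p an exact test of a single gene could give is 0.10.

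The group means correlated at r = 0.9972 across probe sets, and the SD of the differences was 0.176 on the log2 scale. A difference past 2-fold was found for 30 probe sets with higher (0.0966%) and 30 with lower means at 0.8 μg Se/g (0.0966%). The median standard error of a difference was 0.120. The 95% interval of the difference lay within 2-fold in both directions for 30397 probe sets (97.9%) and within 1.5-fold for 27108 (87.3%). For most of the transcripts on the array, a difference larger than 1.5-fold between the diets therefore lay outside the interval.

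**Figure D1:**
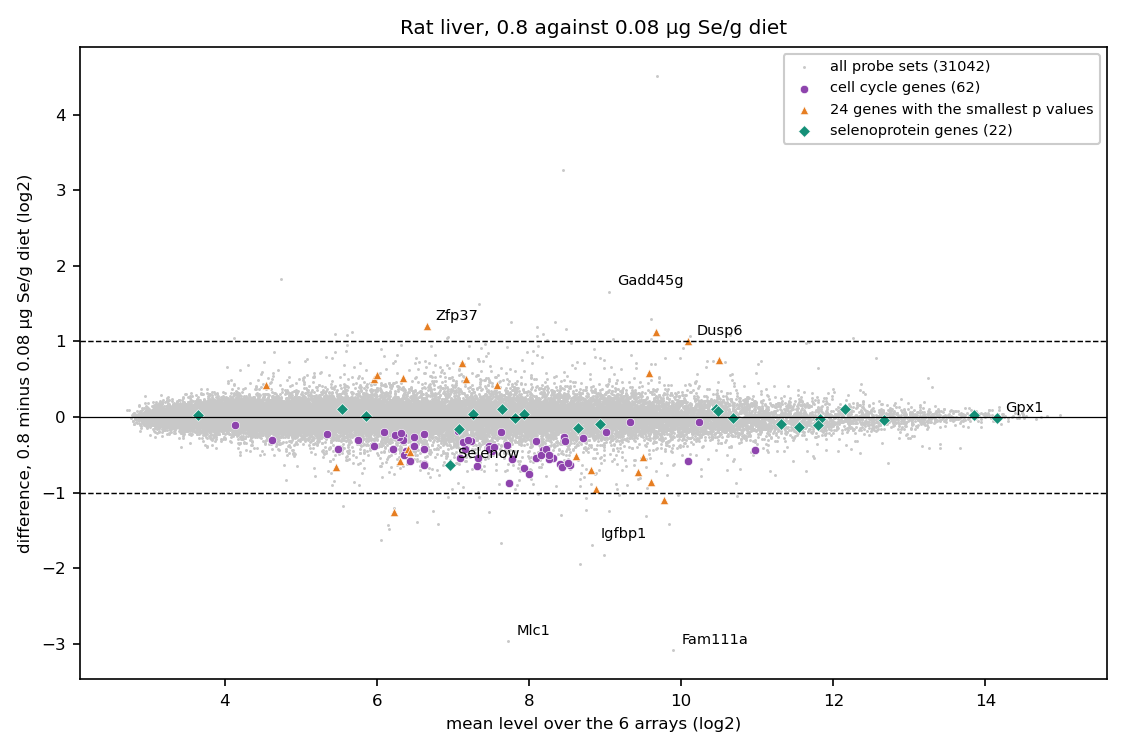
Difference between 0.8 and 0.08 μg Se/g diet (log2) against the mean level over the 6 arrays (log2), with 1 grey point per probe set, colours for selenoprotein genes, cell cycle genes and the 24 genes with the smallest p values, and dashed lines at 2-fold. The 22 selenoprotein genes lie near 0 with Selenow lowest at −0.63, the 62 cell cycle genes all lie below 0, and the most distant points are a probe set with several symbols at 4.52, one without a symbol at 3.26, and the genes Fam111a at −3.09 and Mlc1 at −2.97.

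Selenoprotein transcripts were at nearly the same level on both diets. Of the 24 selenoprotein genes listed, 22 could be matched to a probe set with a single symbol, and 0 of these were higher and 0 lower at an unadjusted p under 0.05. Their median difference was −0.01, as was the median of all genes, and in 21 of 22 the 95% interval lay within 2-fold. Gpx1 was at 14.26, 14.06 and 14.09 at 0.8 and at 14.22, 14.15 and 14.10 at 0.08 μg Se/g. The groups overlapped, and the difference was −0.02 with a 95% interval from −0.25 to 0.21. Selenop was at 13.89, 13.85 and 13.87 at 0.8 and at 13.86, 13.78 and 13.89 at 0.08 μg Se/g, a difference of 0.02 (−0.18 to 0.23), and its other probe set differed by 0.19. In both transcripts the rats of 1 diet lay among those of the other.

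The other glutathione peroxidases and the thioredoxin reductases, which keep thioredoxin reduced, gave the same picture. Gpx4, which reduces lipid hydroperoxides within membranes, differed by −0.04 (SE 0.10), and Gpx3, the plasma enzyme, by −0.01 (SE 0.20). Gpx2, known from the gut epithelium, was lowly expressed and differed by 0.11 (SE 0.23). Txnrd1, Txnrd2 and Txnrd3 differed by 0.08, −0.14 and 0.04, each with an SE of 0.10 or 0.11. All 6 of these transcripts overlapped between the diets, although a second probe set of Txnrd1 (0.11, SE 0.09) did not. Among the deiodinases, which remove iodine from thyroid hormones, Dio1 differed by 0.10 (SE 0.21), with rats at 0.8 from 7.21 to 7.95 and rats at 0.08 μg Se/g from 7.34 to 7.75.

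The selenoproteins of the endoplasmic reticulum lay in a narrow range by the probe set that represents each gene. Second probe sets of Selenon and Selenot differed by −0.29 and −0.12. By the representing probe sets, Selenok, Selenos, Selenot, Selenof, Selenom, Selenoi and Selenon differed by −0.11, 0.10, 0.11, −0.03, −0.16, −0.09 and 0.04. Selenok was the 1 selenoprotein whose representing probe set did not overlap. It was at 11.76, 11.75 and 11.75 at 0.8 and at 11.90, 11.79 and 11.89 at 0.08 μg Se/g, with an SE of 0.09 for its difference. Selenoh, a nuclear redox protein, was at 10.55, 10.86 and 10.62 at 0.8 and at 10.75, 10.66 and 10.65 at 0.08 μg Se/g. Msrb1, which repairs oxidized methionine, differed by −0.09 (SE 0.12). Sephs2, which makes the selenophosphate that selenocysteine is built from and is itself a selenoprotein, differed by −0.13 (SE 0.18).

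Selenow, a small selenoprotein with a thioredoxin fold, was the exception in size. Its level was 6.52, 6.83 and 6.58 at 0.8 and 7.35, 7.86 and 6.60 at 0.08 μg Se/g. The third rat at 0.08 lay among the 3 rats at 0.8, and the other 2 lay above all of them. The difference of −0.63 (SE 0.27) was the lowest of the 22, and its 95% interval from −1.26 to 0.00 was the 1 that reached past 2-fold. Without replicate 3 at 0.08 μg Se/g, 2 selenoprotein genes were lower at an unadjusted p under 0.05 (7.31% of all genes were), the median was −0.07 and 0 were called.

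**Figure D2:**
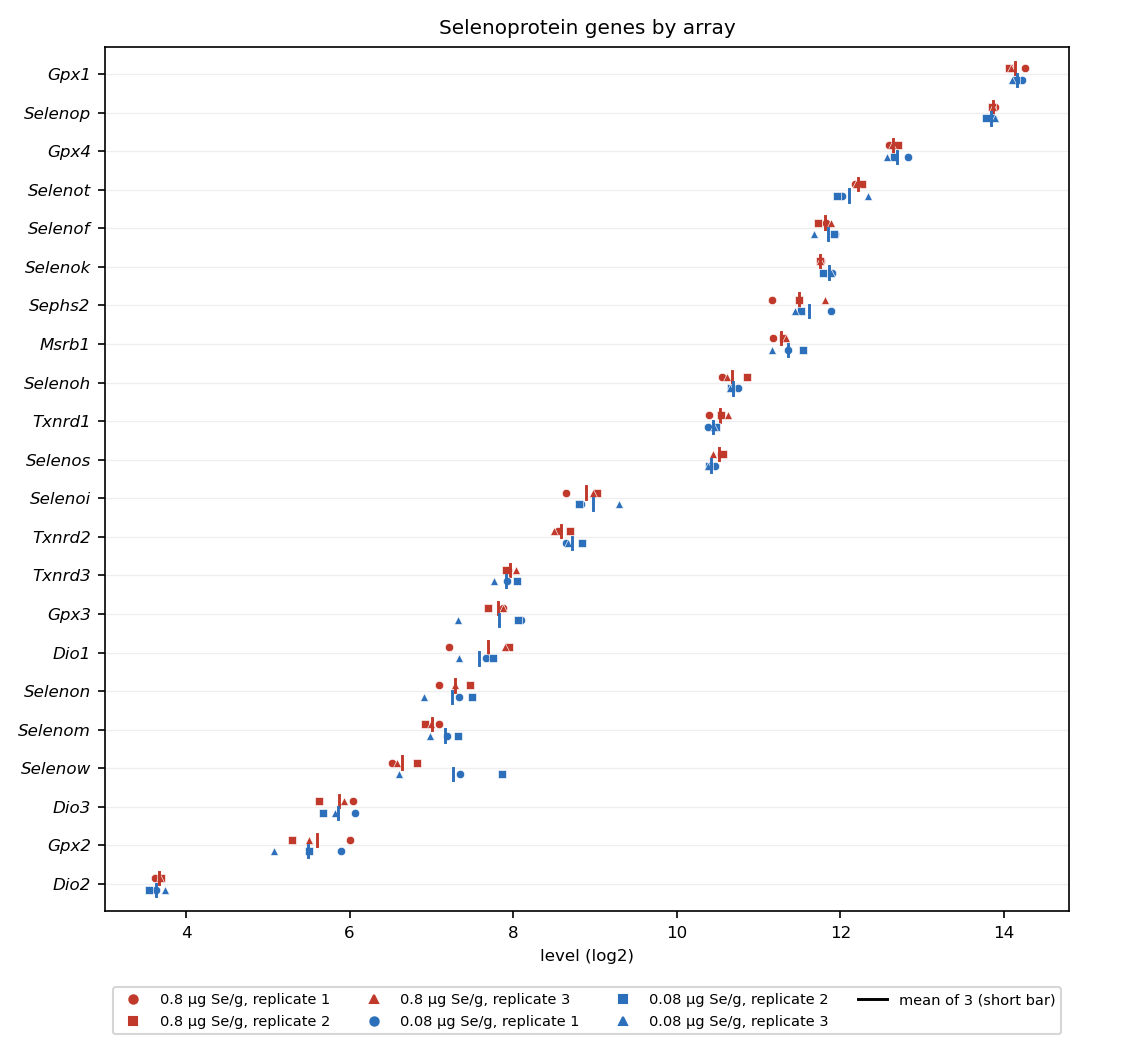
Levels (log2) of the 22 selenoprotein genes, ordered by mean level, in the 3 rats at 0.8 (red, upper row of each gene) and the 3 rats at 0.08 μg Se/g diet (blue, lower row), with 1 marker shape per replicate and a short bar at each mean. The red and blue points overlap in 21 genes, Selenok is the exception, and Selenow has the widest gap between the means.

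The genes that build and recycle selenocysteine differed little. Of 11 genes of the insertion machinery, 0 were higher and 1 was lower at an unadjusted p under 0.05, with a median of 0.00. The lower one was Trnau1ap, which binds the selenocysteine tRNA, at 9.18, 9.44 and 9.09 at 0.8 and 9.64, 9.52 and 9.49 at 0.08 μg Se/g. The rats did not overlap, and the difference was −0.32 (SE 0.12). Secisbp2, which binds the stem loop in selenoprotein mRNAs, differed by 0.14 (SE 0.10), also without overlap. Scly, the lyase that frees Se from selenocysteine, differed by −0.30 (SE 0.16), and its 2 groups overlapped. In the methionine cycle and Se methylation list 0 of 20 genes passed the unadjusted limit in either direction, and the median was 0.03. With replicate 3 at 0.08 left out, the machinery had 1 higher and 2 lower and the methylation list 2 higher and 1 lower. Mat2a, which makes S-adenosylmethionine, was at 10.20, 9.72 and 9.59 at 0.8 and at 9.25, 9.50 and 9.68 at 0.08 μg Se/g, and its other probe sets differed by −0.16 and 0.54.

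Genes of the antioxidant response gave few low p values, all on the lower side. Among 28 Nrf2 targets 0 were higher and 2 lower at an unadjusted p under 0.05, with a median of −0.03, and among 10 Nrf2 regulators 0 passed that limit. Gclc, the catalytic subunit of the rate-limiting enzyme of glutathione synthesis, was at 10.73, 10.995 and 10.74 at 0.8 and at 11.22, 11.21 and 11.12 at 0.08 μg Se/g. The groups did not overlap, the difference was −0.36 (SE 0.11), and its second probe set differed by −0.30. Gstm3, a glutathione transferase, was at 5.75, 5.56 and 5.70 at 0.8 and at 6.50, 6.92 and 5.97 at 0.08 μg Se/g, a difference of −0.79 (SE 0.21). In the list of other antioxidant enzymes 16 of 19 means were lower at 0.8 and 2 genes passed the unadjusted limit, Sesn1 and Sesn2. These encode sestrins, stress proteins that help to reduce peroxiredoxins and restrain mTORC1. Sesn1 was at 8.34, 8.40 and 8.35 at 0.8 and at 8.96, 8.89 and 8.79 at 0.08 μg Se/g, a difference of −0.52 (SE 0.09), and its second probe set differed by −0.37. Sesn2 differed by −0.37 (SE 0.14), and by −0.41 in its second probe set. In both genes all rats at 0.8 lay below all rats at 0.08 μg Se/g. When replicate 3 at 0.08 was omitted, 4 Nrf2 targets were lower and 0 higher (median −0.10), 1 regulator was higher, and 5 other antioxidant enzymes were lower (median −0.16). Of these Sod3, the extracellular superoxide dismutase, was then called (−1.24).

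Genes that the study names for high Se or for Se deficiency did not pass the unadjusted limit. Of 14 measured genes that it describes at high Se, 0 were higher and 0 lower at the unadjusted limit, with a median of 0.06. The 95% intervals of all 14 lay within 2-fold. The 14 include Cirbp, which the study's arrays gave as lower at 2 μg Se/g, so this median mixes directions. Rgs4, a regulator of G protein signalling, had the largest difference of the 14 at 0.38 (SE 0.23). It was at 6.46, 5.81 and 6.87 at 0.8 and at 6.04, 5.98 and 5.99 at 0.08 μg Se/g. The other probe set of Rgs4 differed by 0.11. Of 10 genes it describes in Se deficiency, 0 passed the limit, and the median was −0.02. Omitting replicate 3 at 0.08, 1 of the high-Se genes was higher and the other counts were 0. Nqo1, a quinone reductase, differed by −0.15 (SE 0.15) and Abcc3, an efflux transporter, by −0.14 (SE 0.27).

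The 12 genes with the smallest p on the higher side had differences from 0.42 to 1.20, and none of them passed the test. Dusp6, a phosphatase that switches off the MAP kinase ERK, had the smallest of all. Its level was 10.61, 10.81 and 10.37 at 0.8 and 9.51, 9.52 and 9.76 at 0.08 μg Se/g, so the groups lay apart by more than the spread within either. The 2.00-fold difference was 1.002 on the log2 scale (SE 0.14, adjusted p = 0.97), and its 2 other probe sets differed by 1.16 and 0.91. Zfp37, a zinc finger protein, was at 7.35, 7.39 and 7.04 at 0.8 and at 5.94, 5.81 and 6.43 at 0.08 μg Se/g, a 2.29-fold difference (1.20, SE 0.17). Plk2, a polo-like kinase induced by p53, was at 10.63, 10.93 and 11.04 at 0.8 and at 10.08, 10.26 and 10.02 at 0.08 μg Se/g (0.75, SE 0.13). Every rat at 0.8 lay above every rat at 0.08 in these 3 genes, as the rule for naming them required.

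The 12 also held 2 cell surface receptors. Tnfrsf12a, the receptor of the cytokine TWEAK, differed by 0.52 (SE 0.09) and F2rl1, a receptor that proteases activate, by 0.56 (SE 0.12). Slc43a1, a carrier of neutral amino acids, was at 9.95, 9.94 and 9.71 at 0.8 and at 9.45, 9.32 and 9.10 at 0.08 μg Se/g. Hykk, a kinase of hydroxylysine breakdown, was at 10.29, 10.08 and 10.33 at 0.8 and at 9.70, 9.10 and 8.51 at 0.08 μg Se/g, a 2.20-fold difference with a wide spread at 0.08. Trib3, a pseudokinase induced when amino acids are short, differed by 0.50 (SE 0.12), and by 0.20 and 0.13 in its other probe sets. Maml1, a coactivator of Notch, Serpine3, of the serpin family, C2cd3, a protein of centrioles, and Zswim1 completed the 12, with differences of 0.42, 0.42, 0.50 and 0.71.

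The 12 genes with the smallest p on the lower side had differences from −1.26 to −0.43, and none of them passed the test. Depp1, known in human and mouse cells as a target of FOXO transcription factors, was at 8.98, 9.10 and 9.60 at 0.8 and at 10.25, 10.11 and 10.64 at 0.08 μg Se/g. The difference was −1.10 (SE 0.19). Zfp36, which marks AU-rich mRNAs for decay, was at 8.30, 8.59 and 8.33 at 0.8 and at 9.39, 9.76 and 8.94 at 0.08 μg Se/g (−0.96, SE 0.20). Abcb9, a peptide transporter of lysosomes, was at 5.03, 5.95 and 5.82 at 0.8 and at 6.81, 6.91 and 6.86 at 0.08 μg Se/g (−1.26, SE 0.22), with most of its spread at 0.8. Sesn1, described above, belonged to the same 12.

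The same 12 held 3 metabolic enzymes. Aspa, which cleaves N-acetylaspartate, was at 8.53, 8.41 and 8.48 at 0.8 and at 9.20, 9.32 and 8.99 at 0.08 μg Se/g, a difference of −0.70 (SE 0.11). Asrgl1, an asparaginase, differed by −0.86 (SE 0.15), and by −0.56 and −0.10 in its other probe sets. Sqor, the mitochondrial enzyme that oxidizes hydrogen sulfide, was at 9.32, 8.91 and 8.98 at 0.8 and at 9.73, 9.88 and 9.77 at 0.08 μg Se/g (−0.73, SE 0.13). Ncapg2, a condensin subunit, and Haus1, part of the augmin complex of the spindle, differed by −0.46 and −0.43, each without overlap, although a second probe set of Haus1 differed by 0.02. Grhl3, a transcription factor of epithelia, Gypc, a glycophorin of the red cell membrane, and H1f10, a linker histone, differed by −0.66, −0.53 and −0.58.

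**Figure D3:**
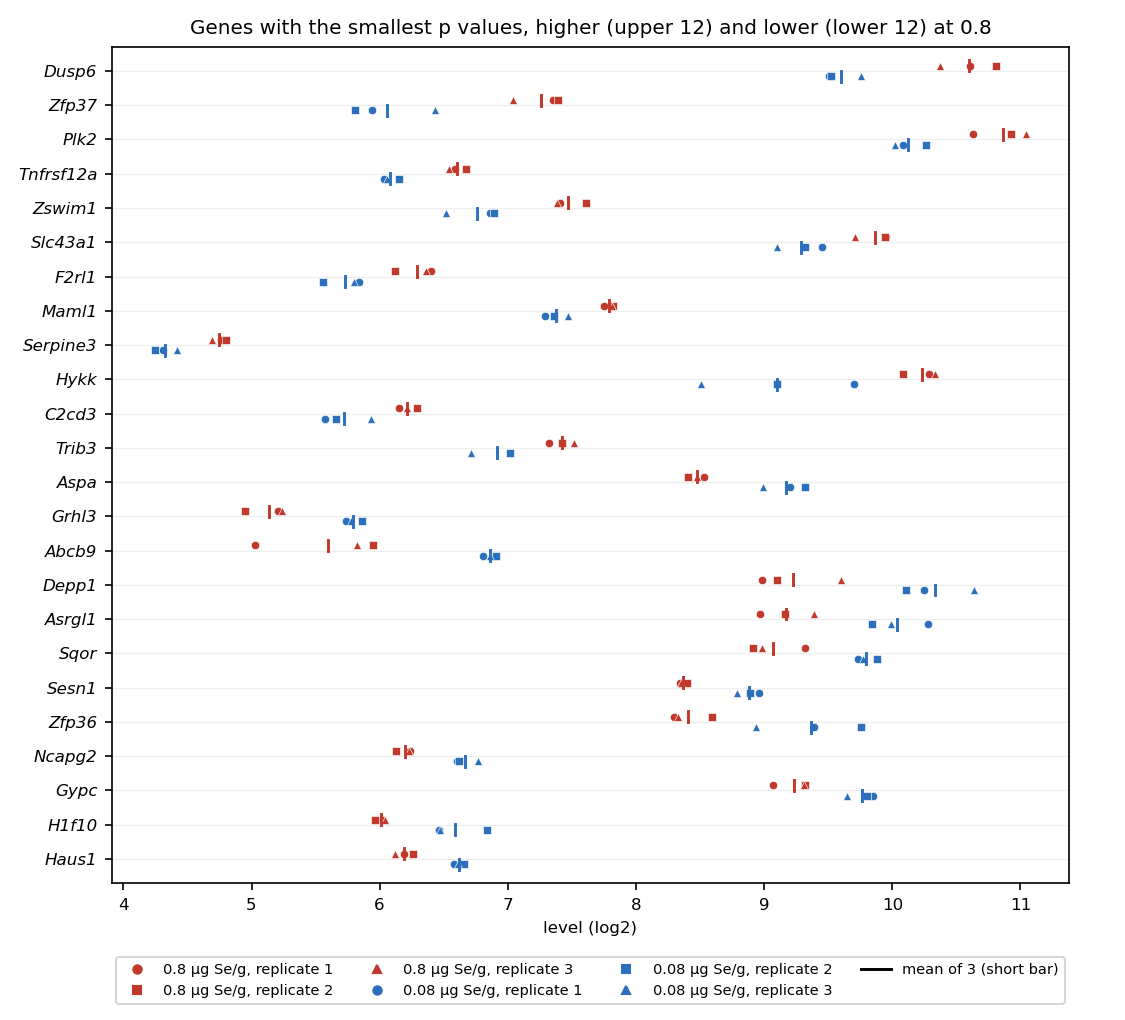
Levels (log2) of the 12 genes with the smallest p among those higher (upper) and among those lower at 0.8 μg Se/g diet (lower), chosen among genes without overlap, with the rats at 0.8 in red and those at 0.08 in blue, 1 marker shape per replicate and a short bar at each mean. The distance between the means is widest in Abcb9, Zfp37 and Hykk, and each of the 24 genes had an adjusted p of 0.97.

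The cell cycle genes were the group that differed most from the background, among lists chosen with earlier results of these data known. The counts describe this list and do not test it. All 62 measured members of the 69 listed had lower means at 0.8 μg Se/g, 37 were lower at an unadjusted p under 0.05 and 0 were higher. Among all genes 3.31% were lower at that limit. The median difference was −0.41, against −0.01 over all genes, and in 27 of the 62 the rats did not overlap, against 5.99% of all genes. None of the 62 was called, and members of 1 list in the same rats are not independent measurements. In whole liver, fewer dividing cells and less of these transcripts per cell cannot be told apart.

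The mean over the list in each rat was 7.05, 7.31 and 7.16 at 0.8 and 7.49, 7.82 and 7.43 at 0.08 μg Se/g, so the groups lay 0.41 apart and did not overlap. Replicate 2 at 0.08 was the highest, and without it the median difference was −0.28. Without replicate 3 at 0.08 it was −0.49, and 42 genes were then lower at an unadjusted p under 0.05, against 7.31% of all genes in that setting. In the rats of the other study, processed apart according to the methods, the same mean was 7.38, 8.13 and 7.43 in Se deficiency, 7.29, 7.62 and 6.75 at 0.24, 7.24, 6.95 and 7.61 at 2 and 7.02, 7.23 and 7.35 at 5 μg Se/g. The range of values within 3 of those 4 diets was wider than the gap between 0.8 and 0.08 μg Se/g.

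Each role in the list had members past the unadjusted limit. Ccnd1, Ccne1, Ccne2, E2f1 and E2f8 were among those that did not pass it. Among genes for DNA replication and nucleotide supply, 11 of 16 were lower at the unadjusted limit, with a median of −0.35. Tyms, which makes the thymidylate for DNA, was at 6.28, 6.22 and 5.94 at 0.8 and at 6.63, 6.64 and 6.90 at 0.08 μg Se/g (−0.58, SE 0.13). Chek1, a kinase of the replication checkpoint, was at 7.58, 7.07 and 7.27 at 0.8 and at 8.29, 8.44 and 7.78 at 0.08 μg Se/g (−0.87, SE 0.19), the largest difference of the list. In both genes the rats of the 2 diets did not overlap. Among spindle, kinetochore and chromosome genes 13 of 26 passed the limit (median −0.41), among cyclins, their kinases and regulators 5 of 11 (median −0.31), and among genes of mitotic exit, cytokinesis and related steps 8 of 9 (median −0.43). Nusap1, which bundles spindle microtubules, differed by −0.54 (SE 0.14), and by −0.59 in its second probe set. Pbk, a mitotic kinase, was at 6.77, 7.17 and 7.04 at 0.8 and at 7.44, 7.91 and 7.57 at 0.08 μg Se/g.

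The following members were picked after their values had been seen, because they are the usual labels of dividing cells. Cdk1, the kinase that starts mitosis, was at 7.88, 8.23 and 8.22 at 0.8 and at 8.68, 9.19 and 8.43 at 0.08 μg Se/g (−0.66, SE 0.19), and Top2a, which untangles DNA, differed by −0.63 (SE 0.18). Pcna, the sliding clamp of DNA polymerase, was at 10.76, 10.85 and 10.62 at 0.8 and at 11.37, 11.23 and 10.96 at 0.08 μg Se/g (−0.44, SE 0.13). These 3 did not overlap. Mki67, the proliferation marker of histology, overlapped, with 7.58, 8.31 and 7.89 at 0.8 and 7.72, 8.52 and 8.51 at 0.08 μg Se/g (−0.32, SE 0.25). Ccnd1, the cyclin that links growth signals to the cycle, had the smallest difference together with Lmnb1, at −0.07.

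**Figure D4:**
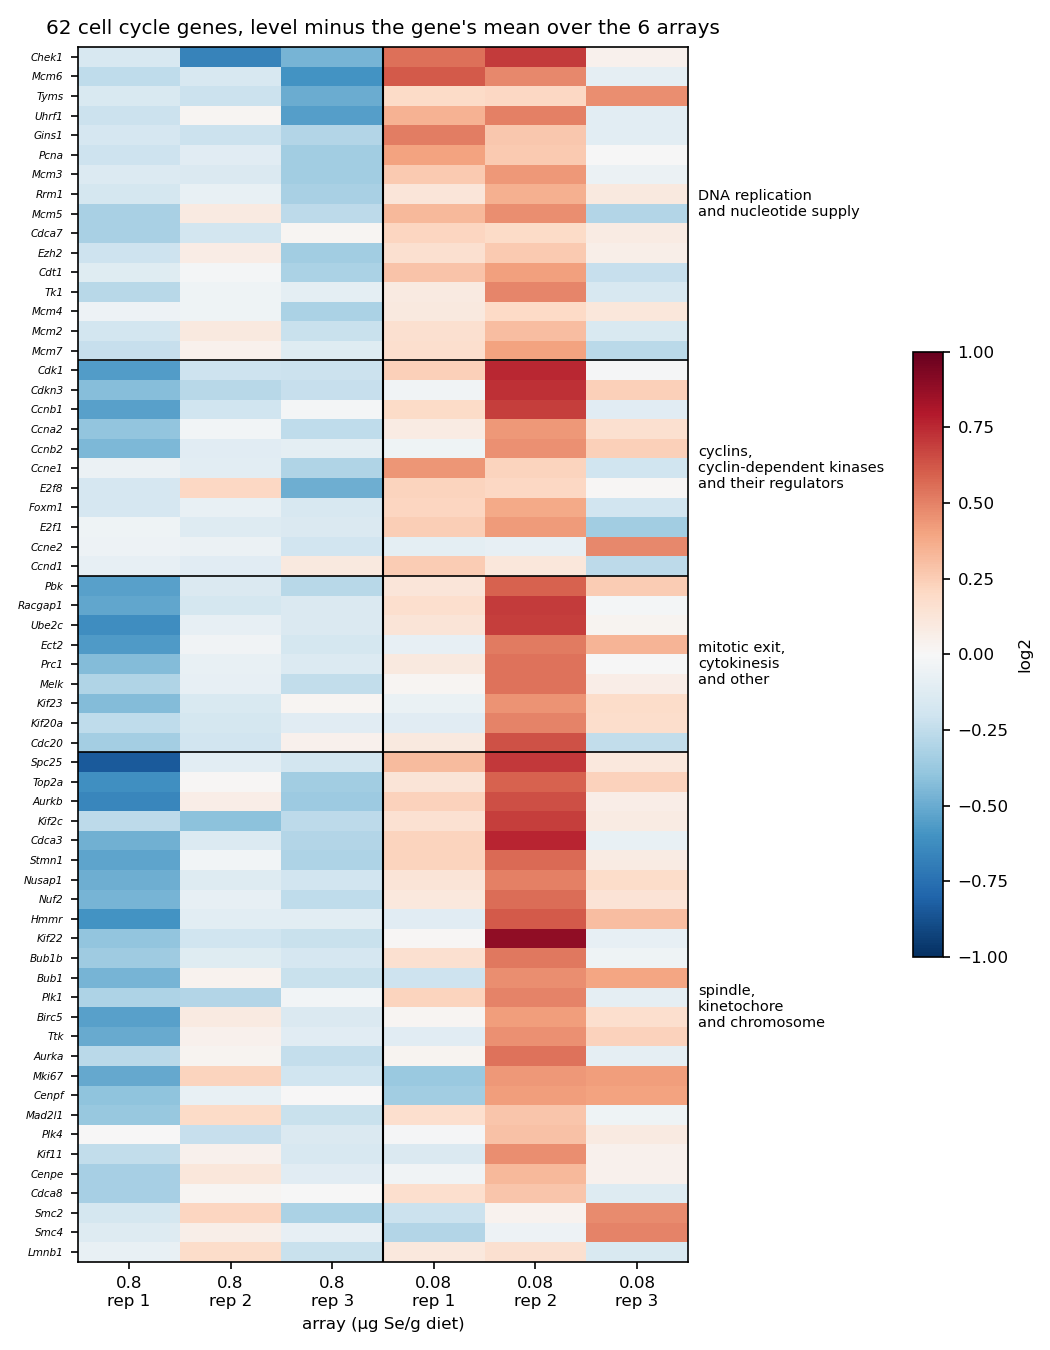
Level of each of the 62 cell cycle genes minus its mean over the 6 arrays (log2 colour scale from −1, blue, to 1, red), with arrays as columns (0.8 left, 0.08 μg Se/g diet right) and genes grouped by role and ordered by difference. Replicate 1 at 0.8 is blue in most rows and replicate 2 at 0.08 red in most, while replicate 3 at 0.08 lies between them in many.

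Genes that restrain the cycle were mixed. Of 16 cell cycle inhibitors and p53 targets, 3 were higher and 3 lower at an unadjusted p under 0.05, with a median of −0.04. Besides Plk2, the higher ones were Gadd45g and Gadd45a, stress genes that arrest growth. Gadd45g was at 9.09, 10.47 and 10.09 at 0.8 and at 9.52, 8.24 and 6.91 at 0.08 μg Se/g (1.66, SE 0.60), and Gadd45a differed by 0.70 (SE 0.25). Both overlapped between the diets. Tp53inp1, a p53 target of the autophagy pathway, differed by −0.52 (SE 0.18) without overlap. The list had 1 higher and 3 lower without replicate 3 at 0.08 μg Se/g.

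Markers of the other cells of the liver were set beside the cell cycle genes. Their list means in the order of the replicates were 9.75, 10.25 and 9.96 at 0.8 and 10.07, 9.93 and 10.22 at 0.08 μg Se/g for Kupffer cells, the macrophages of the liver. For lymphocytes they were 6.23, 6.39 and 6.26 at 0.8 and 6.25, 6.13 and 6.40 at 0.08 μg Se/g, and for erythroid cells 6.29, 6.36 and 6.24 at 0.8 and 6.64, 6.22 and 6.22 at 0.08 μg Se/g. All 3 lists overlapped, and in each 0 members passed the unadjusted limit. The 11 Kupffer cell genes nevertheless all had lower means at 0.8, with a median of −0.05 and a lowest difference of −0.32. Endothelial markers had 12 of 14 means higher at 0.8, with a median of 0.15, and a list mean of 8.95 ± 0.01 (SD, n = 3) at 0.8, against 8.84 ± 0.19 (SD, n = 3) in rats at 0.08 μg Se/g, where replicate 1 was the lowest. Leaving out replicate 3 at 0.08, 4 endothelial genes (median 0.21) and 2 lymphocyte genes were higher and 1 erythroid gene was lower at the unadjusted limit. Epcam, an adhesion protein of bile duct cells, was at 11.68, 8.81 and 8.75 at 0.8 and at 8.98, 9.32 and 8.47 at 0.08 μg Se/g, high in 1 rat only. Gpm6a, from the mesothelium list, was low in 1 rat only, at 9.56, 9.73 and 5.11 at 0.8 and at 9.65, 9.57 and 8.88 at 0.08 μg Se/g. The part of these cell types in the difference of the cell cycle genes was not tested.

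The lists of bile acid and lipid metabolism had medians near that of all genes and a few members that stood out. Among 21 bile acid genes (median 0.02) 1 was higher and 1 lower at the unadjusted limit. The lower one was Cyp7a1, the rate-limiting enzyme of bile acid synthesis, at 8.17, 9.55 and 8.93 at 0.8 and at 10.21, 10.72 and 9.66 at 0.08 μg Se/g. Its difference of −1.31 (SE 0.36) came without overlap but with a wide spread on both diets. Abcb11, the bile salt export pump, was at 11.94, 12.29 and 12.30 at 0.8 and at 11.85, 11.82 and 11.85 at 0.08 μg Se/g (0.33, SE 0.12). The cholesterol synthesis genes had 16 of 19 means lower at 0.8, a median of −0.11 and 0 members past the limit. In fatty acid synthesis 1 of 25 passed it, Thrsp, a lipogenic gene under thyroid hormone and insulin, with −0.41 (SE 0.14) and −0.36 and −0.48 in its other probe sets. In the fits without replicate 3 at 0.08, 2 cholesterol genes were lower, and 2 genes of fatty acid synthesis were higher and 4 lower.

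Of 26 glucose and insulin genes 1 was higher and 1 lower at the unadjusted limit, and of 25 genes of the growth hormone axis 1 was higher and 2 were lower. Igfbp1, a binding protein of insulin-like growth factors that insulin represses, was at 6.47, 8.39 and 9.09 at 0.8 and at 8.93, 9.32 and 10.79 at 0.08 μg Se/g. The groups overlapped and the SE of its difference of −1.69 was 0.68. Igfbp3, the main carrier of these factors in plasma, differed by −0.40 (SE 0.15) without overlap, and by −0.35 in its second probe set. Cpt1a, which admits fatty acids to mitochondria, differed by 0.74 (SE 0.37). It was 11.13, 11.82 and 11.30 at 0.8 and 10.71, 9.84 and 11.47 at 0.08 μg Se/g, where the third rat lay above 2 of those at 0.8. Of 34 genes of fatty acid oxidation, 0 passed the limit. Without replicate 3 at 0.08 μg Se/g, 3 glucose and insulin genes were higher and 2 lower, the growth hormone axis had 2 higher and 3 lower, and fatty acid oxidation 2 higher and 1 lower.

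The circadian clock list had 4 of 18 genes lower and 0 higher at the unadjusted limit, with a median of −0.10. Dbp, an output transcription factor of the clock, was at 5.77, 5.90 and 5.91 at 0.8 and at 6.63, 6.82 and 6.12 at 0.08 μg Se/g (−0.66, SE 0.17). Cry2, a repressor of the clock, differed by −0.43 (SE 0.12) and by −0.18 in its second probe set. Usp2, a rhythmic deubiquitinase, differed by −0.38 (SE 0.12) and by −0.58. These 3 did not overlap. Hlf, a relative of Dbp, differed by −0.35 (SE 0.14), with an overlap. Of the clock genes, 2 were higher and 6 lower without replicate 3 at 0.08 μg Se/g, with a median of −0.11.

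Drug, steroid and hormone genes added few low p values. Of 34 cytochrome P450 genes 1 was lower and 0 higher at the unadjusted limit. It was Cyp17a1, an enzyme of steroid synthesis, at 9.26, 9.65 and 9.81 at 0.8 and at 10.11, 10.34 and 10.18 at 0.08 μg Se/g (−0.64, SE 0.15), without overlap. Prlr, the prolactin receptor, was at 10.80, 8.57 and 8.96 at 0.8 and at 10.74, 10.20 and 10.47 at 0.08 μg Se/g, and its other probe sets differed by −1.07 and −1.25. Replicate 1 at 0.8 lay above all rats at 0.08, and the other 2 below them. Gstm7, a glutathione transferase, differed by −0.63 (SE 0.19), with an overlap of 1 rat. Mx2, an antiviral GTPase induced by interferon, differed by 0.75 (SE 0.32), while its other probe set differed by −1.40. Among P450 genes 2 and among glutathione transferases 4 were lower without replicate 3 at 0.08 μg Se/g.

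In the acute phase list 3 of 21 genes were higher and 0 lower at the unadjusted limit, with a median of 0.02. Socs3, which damps cytokine signalling, was at 6.33, 6.48 and 6.64 at 0.8 and at 6.17, 6.05 and 5.82 at 0.08 μg Se/g (0.47, SE 0.13). A2m, the major acute phase protein of the rat, was at 9.79, 8.70 and 9.30 at 0.8 and at 8.29, 8.45 and 8.69 at 0.08 μg Se/g, a difference of 0.79 (SE 0.25). Neither overlapped, A2m by a narrow gap. Among 32 genes of the amino acid and unfolded protein response 3 were higher and 2 lower, with a median of 0.01. Atf3, a stress transcription factor, differed by 0.51 (SE 0.15), without overlap. The 37 collagen and matrix genes gave 1 higher and 3 lower, with a median of 0.02, and the 30 proteasome genes 0 and 2, with a median of −0.11. These 4 lists moved when replicate 3 at 0.08 was left out. The acute phase list then had 4 higher and 2 lower, with Il6r called, and the amino acid and unfolded protein response 5 higher and 6 lower, with the chaperone calreticulin (Calr, −0.90) called. The collagen and matrix list had 1 higher and 7 lower (median −0.09), and the proteasome 0 higher and 5 lower (median −0.15), with Psmb7 called.

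The remaining pathway lists, from cytochrome P450 and sulfotransferases to the respiratory chain and ribosomal proteins, had at most 2 members past the limit in 1 direction and medians from −0.06 to 0.04. Of these, the interferon list had 4 higher (median 0.09) and the actin list 4 lower (median −0.09) without replicate 3 at 0.08 μg Se/g.

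The largest differences belonged to probe sets that varied between rats on the same diet. A probe set with several symbols was at 12.16, 11.48 and 12.19 at 0.8 and at 4.65, 12.20 and 5.43 at 0.08 μg Se/g (4.52), and one without a symbol at 10.30, 9.76 and 10.19 at 0.8 and at 5.14, 4.40 and 10.90 at 0.08 μg Se/g (3.26). In each, 1 of the rats at 0.08 stood with those at 0.8. Fam111a, linked to DNA replication and antiviral defence in human cells, was at 6.37, 7.45 and 11.24 at 0.8 and at 11.47, 11.54 and 11.32 at 0.08 μg Se/g. The fitted difference was −3.09 (SE 1.03), and replicate 3 at 0.8 lay close below the rats at 0.08. Over all 18 rats the gene fell into a lower range of 5.67 to 7.52 in 7 rats and an upper range of 10.88 to 11.54 in 11. Mlc1, a membrane protein of astrocytes, was at 4.54, 9.21 and 4.98 at 0.8 and at 9.11, 9.03 and 9.49 at 0.08 μg Se/g, with 4 of the 18 rats from 4.54 to 5.43 and 14 from 8.61 to 10.13. Abhd3, a phospholipase, was at 4.06, 8.10 and 4.12 at 0.8 and at 8.21, 4.08 and 8.29 at 0.08 μg Se/g, and its 18 values lay from 3.69 to 4.35 in 12 rats and from 7.64 to 8.29 in 6. In these genes a rat was either high or low, with no value between the ranges. The second probe set of Abhd3 differed by −0.20.

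Leaving out replicate 3 at 0.08 μg Se/g gave the 1 setting with more than 2 calls. With 3 rats against 2, limma called 39 probe sets, 20 higher and 19 lower at 0.8, of which 27 carry a single gene symbol, and 3517 had an unadjusted p under 0.05. In 37 of the 39 the omitted rat lay nearer to the mean at 0.8 than to that of the other 2 rats of its own diet, which the choice of probe sets called only without this rat largely fixes. Copz1, a coat protein of Golgi vesicles, was at 8.68, 8.69 and 8.68 at 0.8 and at 10.10, 10.22 and 8.59 at 0.08 μg Se/g. Psmb7, a catalytic subunit of the proteasome, was at 9.91, 9.98 and 9.74 at 0.8 and at 10.96, 10.99 and 10.02 at 0.08 μg Se/g, and Il6r, the interleukin 6 receptor, at 10.59, 10.72 and 10.81 at 0.8 and at 9.65, 9.56 and 10.68 at 0.08 μg Se/g. In all 3, replicates 1 and 2 at 0.08 stood apart from the other 4 rats. Zfp37 was the 1 named gene of the 39 in which replicate 3 was nearer to its own diet. Copz1 was picked here after its values had been seen, for its p.

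The same 39 probe sets varied in the other diets too. The mean over the 20 higher ones was 8.10, 8.17 and 8.06 at 0.8 and 6.67, 6.63 and 8.39 at 0.08 μg Se/g, a difference of 0.88. Its range within a diet was 0.11 at 0.8 and 1.76 at 0.08 μg Se/g. In the second study that range was 0.50 in Se deficiency, 0.61 at 0.24, 0.40 at 2 and 0.61 at 5 μg Se/g. The mean over the 19 lower ones was 8.96, 9.02 and 8.98 at 0.8 and 10.14, 10.21 and 9.10 at 0.08 μg Se/g, a difference of −0.83. Its range was 0.06 at 0.8 and 1.11 at 0.08 μg Se/g. In the second study it was 0.74 in Se deficiency, 0.68 at 0.24, 1.22 at 2 and 0.11 at 5 μg Se/g. The 39 were called for their gap between 0.8 and 0.08 μg Se/g in these same arrays. Both differences are therefore large by choice, and nothing is read from setting them against the ranges. A control added at hybridization, bioB, was at 9.06, 9.25 and 8.87 at 0.8 and at 8.70, 8.47 and 9.25 at 0.08 μg Se/g, lowest in the 2 rats that stood apart. The ratio of the 3′ to the 5′ end of beta-actin, a sign of RNA quality, was 1.88, 1.90 and 1.90 at 0.8 and 1.73, 1.98 and 1.92 at 0.08 μg Se/g on the log2 scale. The part of either in these probe sets was not tested.

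The response to 0.8 over 0.08 μg Se/g was then set against responses within the second study, in 1 fit of the 18 rat arrays. Each response is a difference within 1 study, and the 3 comparisons share the arrays at 0.8, 0.08 and 0.24 μg Se/g. Against the step from the Se-deficient diet to 0.24 μg Se/g, 3 of 31042 probe sets differed (0.00966%), and 715 had an unadjusted p under 0.05. Gpx1 was 1.87 higher at 0.24 than in Se deficiency, while its response to 0.8 over 0.08 was −0.02 (difference −1.89, SE 0.16, adjusted p = 5.9e-05). It was called in 19 of 19 settings. Selenoh gave −0.01 against 2.60, a difference between the responses of −2.61 (SE 0.39, adjusted p = 0.049), and it was called in 5 of 19 settings. For these 2 selenoproteins the rise between Se deficiency and 0.24 μg Se/g was thus larger than the step to 0.8 over 0.08 μg Se/g. Selenow did not pass this test, with responses of −0.63 and 0.99 (difference −1.61, SE 0.57, adjusted p = 1).

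Against the step from 0.24 to 2 μg Se/g, 0 probe sets differed (0%), with 1685 at an unadjusted p under 0.05. The 0 became 627 with array weights, so it is not read as likeness of these responses. Against the step from 0.24 to 5 μg Se/g, 331 differed (1.07%), 60 more positive and 271 more negative at 0.8 over 0.08 μg Se/g. Slc7a11, the cystine carrier that supplies glutathione synthesis, differed by −0.10 between 0.8 and 0.08 and by 2.46 between 5 and 0.24 μg Se/g (difference −2.57, SE 0.28, adjusted p = 0.00051). Akr1b8, an aldo-keto reductase, gave 0.16 and 4.63 (difference −4.47, SE 0.41), Grb10, an adaptor of the insulin receptor, 0.08 and 1.49 (difference −1.42, SE 0.16), and Col4a1, a collagen of basement membranes, −0.18 and 2.04 (difference −2.21, SE 0.25). In these genes the first response was close to 0 and the second was not. Tsx, Prkar2b, a regulatory subunit of protein kinase A, Fhl1, a LIM domain protein, Spon1, a matrix protein, Ankrd1, an ankyrin repeat protein, and Star, which moves cholesterol into mitochondria, were of the same kind, with differences from −3.83 to −1.42.

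Of the 24 leading genes at 0.8 μg Se/g, 16 had responses of opposite sign at 5 over 0.24 μg Se/g and 8 of the same sign. The responses themselves differed in 7 of the 24, all among the 16. Zfp37 gave 1.20 for 0.8 over 0.08 and −2.52 for 5 over 0.24 μg Se/g (difference 3.72, SE 0.56, adjusted p = 0.0043, called in 19 of 19 settings). Dusp6 gave 1.002 and −1.12 (difference 2.12, SE 0.40, adjusted p = 0.018), and Plk2 0.75 and −0.32 (difference 1.07, SE 0.19). Zfp36 gave −0.96 and 1.07 (difference −2.03, SE 0.41). F2rl1, Gypc and Serpine3 were the others of the 7. Cyp7a1, named from its lists and not one of the 24, gave −1.31 and 2.14 (difference −3.46, SE 0.76, adjusted p = 0.037). Among the 24, Tnfrsf12a, Trib3, Grhl3 and Asrgl1 gave responses of the same sign, with 0.52 and 1.60, 0.50 and 0.90, −0.66 and −0.48, and −0.86 and −0.55, and were not called. All of these genes lead the comparison of 0.8 with 0.08 μg Se/g or a list in it, so the first of each pair of values is among the largest by choice, and nothing is read from the share of 7 in 24. The cell cycle genes had a median response of −0.41 between 0.8 and 0.08, −0.43 between 0.24 μg Se/g and Se deficiency, 0.07 between 2 and 0.24 and −0.03 between 5 and 0.24 μg Se/g. Of the 62, 0, 0 and 1 differed between responses in the 3 comparisons.

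**Figure D5:**
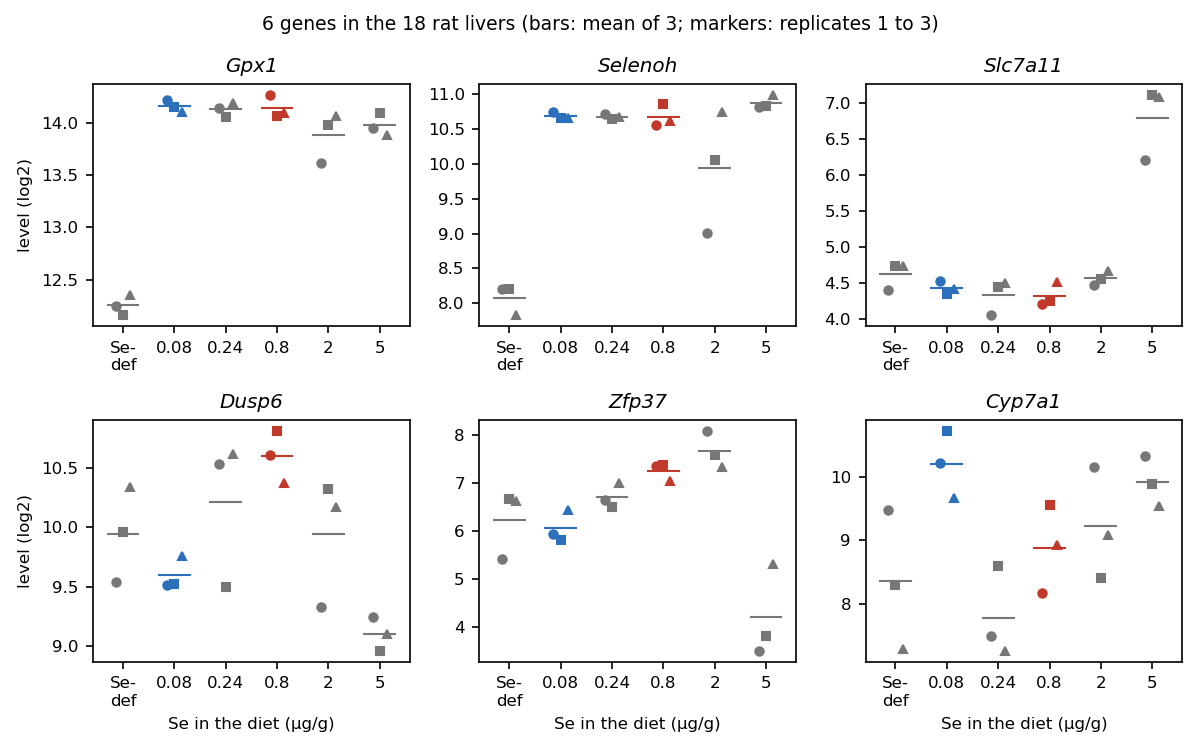
Levels (log2) of 6 genes in the 18 rat livers by dietary Se (μg/g, from the Se-deficient diet to 5), with 0.8 in red, 0.08 in blue, the second study in grey, 1 marker shape per replicate and a bar at each mean. By the methods the 2 studies were processed apart, so only steps within 1 study are compared (red with blue, and grey with grey). Gpx1 and Selenoh step up from Se deficiency and not at 0.8 over 0.08, and Slc7a11 steps up at 5. Zfp37 and Dusp6 are higher at 0.8 than at 0.08 and lower at 5 than at 0.24.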

How the data were processed

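RNA of 6 rat livers, 3 per diet, was measured on 1 Affymetrix array each. The deposited log2 values were made by the authors from the scanned arrays, with background correction, normalization and summary per probe set. The methods give robust multichip averaging (RMA), for each study separately, while the submitters' processing notes name GCRMA, with no version given in the sources used here, so which of them made these values is not known. The 2 methods treat background differently, which bears most on dim probe sets. The deposited log2 values were used as they are, with no filter on low values.

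Of 31099 probe sets, 57 controls were left out and 31042 tested. The platform annotation, which can be old, gave 20826 probe sets 1 gene symbol, 436 several and 9780 none, and genes were named from single symbols only. A gene with several probe sets was represented by its brightest, taken over the 6 arrays (14217 genes). Other probe sets are given beside it for some of the genes.

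The diets were compared with limma 3.58.1 in R 4.3.3 on the 6 arrays, with Benjamini-Hochberg adjustment over all probe sets and a call at an adjusted p under 0.05. Groups came from the sample labels, which describe 1 rat per array, so that p-values measure the spread between rats. The number of arrays limits the precision. The named genes are the 12 in each direction with the smallest p among genes without overlap between the diets, the 5 with the largest difference in each direction, all selenoproteins, the genes of 2 study lists, the 2 to 4 members with the smallest p in each of the other lists, and up to 10 called genes in each difference of responses. There were 48 lists (32 pathway, 2 study and 14 cell type lists). Exceptions are named as such. Members and lists were chosen with earlier results of these data known. The 2 study lists hold genes that the study selected, the high-Se one on the arrays of the other rat study.

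Differences between responses were tested in 1 limma fit of the 18 rat arrays with a mean per diet. The assignment of diets to the 2 rat studies follows the paper. Alternatives were a fit of all rat arrays (for the responses, of the 4 diets compared), a variance trend with robust moderation, array weights, a filter at the median level, quantile normalization, the replicate number as a block and leaving out each array. The lists without replicate 3 at 0.08 μg Se/g were added after the data had been seen. Of the fits, only the main one of the 6 arrays was tested on simulated data. Tables and plots were made with Python 3.11.15, numpy 2.4.6, pandas 2.3.3 and matplotlib 3.10.9. The mouse arrays were not used here, and 0 sample columns were without a label.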

Additional observations from a re-analysis of the deposited data

Results flagged for a closer look

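These results are listed because the response to 0.8 over 0.08 μg Se/g was found by a test to differ from a response in the second rat study. Against the step from the Se-deficient diet to 0.24 μg Se/g, 3 probe sets differed. They were Gpx1, with a difference between the responses of −1.89, Selenoh, with −2.61, and a probe set without a gene symbol. Gpx1 was called in every setting, and Selenoh in a minority of them. Against the step from 0.24 to 5 μg Se/g, 331 probe sets differed. Both comparisons use the same 3 arrays at 0.8 and 3 at 0.08 μg Se/g as well as those at 0.24 μg Se/g. No test for an outlying value of a single transcript was run in groups of 3 rats. Replicate 3 at 0.08 μg Se/g, which stood apart as a whole array, is described in the results.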

How the results depend on the processing

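Limma called 0 probe sets at 0.8 against 0.08 μg Se/g in every setting that kept the 6 arrays. Leaving out 1 array gave 0 to 39 calls, with 39 without replicate 3 at 0.08 μg Se/g, 2 without replicate 2 at 0.8 (Mlc1 and a probe set without a symbol), 1 without replicate 3 at 0.8 (Fam111a) and 1 without replicate 2 at 0.08 (a probe set with several symbols). The 1421 probe sets at an unadjusted p under 0.05 became 2587 with array weights, which gave replicate 3 at 0.08 a weight of 0.486, 813 with the dimmer probe sets left out, and 933 to 3517 without 1 array. Past 2-fold lay 60 probe sets, and 69 to 121 without 1 array. Of 2936 probe sets without overlap, 1562 were left by the filter, and fewer rats gave 5153 to 8815. The filter also left 14980 of the 30397 intervals within 2-fold.

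The replicate numbers share no animal, and same-numbered rats deviated together at r of 0.110, −0.116 and −0.139, so the numbers were not read as pairs. With the replicate block 0 probe sets were called and 1279 had an unadjusted p under 0.05, so the block changed no call, and the cell cycle median was −0.41.

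The 3 probe sets whose response differed from that between 0.24 μg Se/g and Se deficiency became 7 with array weights, 1 with quantile normalization, 1 with a replicate block within each study, and 1 to 2 without 1 array. The 0 for 2 against 0.24 μg Se/g became 627 with array weights, and 0 to 1 without 1 array. The 331 for 5 against 0.24 μg Se/g became 1723 with array weights, 208 with the filter, and 156 to 616 without 1 array (616 without replicate 3 at 5 μg Se/g). Except where a setting removes arrays or probe sets, the cause was not tested. The 239 named genes gave 2817 comparisons of a setting with the main fit. A change of direction was counted only for genes with an unadjusted p under 0.05 in the main fit, and there were 0. In 6 comparisons a gene became a call, all on leaving out 1 array (4 of them replicate 3 at 0.08 μg Se/g).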
